A study of Homo sapiens with 6 samples.

Results

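The genes described here encode the basement membrane, the sheet of matrix under epithelia and around vessels, and the integrins, the receptors through which cells hold it. They are 10 laminin chains, 2 nidogens, 2 heparan sulfate proteoglycans, 4 adhesive ligands (FN1, NPNT, VTN and TNC) and 17 integrin subunits. The integrin subunit ITGA8 is not among them. These 35 genes were named by symbol, looked up by Ensembl ID among the 60107 genes of the count table, and all 35 passed the filter on low counts, which 22613 genes passed.

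Messenger RNA was sequenced from cultures of H9, a widely used human embryonic stem cell line, on the way to nephron progenitors by a 10-day protocol. These progenitors form the nephrons of the kidney. The group with glutamine was grown in complete medium and the group without glutamine was deprived of this amino acid from day 0. Both were collected at the end of day 9, with 3 libraries each, from the same line and by the same protocol. The labels do not say whether the 3 libraries of a group came from separate cultures, so p-values measure the spread between these libraries, which may be technical.

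Laminins are trimers of an alpha, a beta and a gamma chain that polymerise into a network on the cell surface. Nidogens and proteoglycans tie this network to type IV collagen, and integrins, which are alpha and beta subunit pairs, join it to the cytoskeleton. In the developing kidney, mesenchymal cells that become epithelial lay down a new basement membrane and alter the laminins and integrins they make.

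The libraries held 78220507 to 84746566 counts. Replicate 1 with glutamine stands apart: across all genes tested, its mean correlation of log2 CPM was 0.976 with its own group and 0.992 with the libraries without glutamine. The members' results are therefore also given without it. Of the nephron progenitor markers, PAX8 was at 167 to 649 CPM (CPM is the count relative to the TMM-scaled total of its library) with glutamine and 587 to 848 without, and WT1 at 225 to 376 and 341 to 390. Of the pluripotency markers POU5F1 had at most 0.151 CPM, whereas DPPA4 had 113 to 184 CPM with glutamine and 212 to 269 without, and LIN28A 156 to 322 and 125 to 152. Of the endothelial markers PECAM1 had at most 1.14 CPM, whereas KDR had 24.3 to 82.3 CPM with and 12.71 to 17.51 without, and EMCN 1.81 to 14.6 and 22.8 to 53.7. The blood cell gene PTPRC had at most 0.0896 CPM. The RNA came from whole cultures, in which fewer cells of a type and less RNA per cell cannot be told apart.

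The comparison asked which of these matrix and receptor genes differ when glutamine is withheld. Fibronectin, agrin, tenascin-C, the laminin gamma chain LAMC1 and the integrin subunits ITGA1, ITGA3, ITGA4, ITGAV and ITGB1 were among those higher in every library without glutamine than in every library with it. In all, 17 of the 35 members (48.6%) were separated in this way, and 17 of 17 were higher without glutamine. Of all genes tested, 34.2% were separated, 17.3% with higher and 16.9% with lower values without glutamine. Upper quartile scaling separated 13 members, all higher, and 3034 genes higher and 4957 lower, against 3909 and 3831 with TMM. The median log2 fold change, without against with glutamine, was 0.54 over the members and 0.001 over all genes. The members were named with earlier results of these data known, so the count describes them and is no test of the list.

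None of the 35 members passed edgeR's quasi-likelihood test at a Benjamini-Hochberg adjusted p under 0.05, where 0.00442% of all genes did. At an unadjusted p under 0.05 there were 19 members (54.3%), against 29.7% of all genes. DESeq2 called 14 members, 13 higher and 1 lower, against 14.0% of the genes it adjusted over (7.54% higher and 6.44% lower), and limma-voom called 0. Without replicate 1 with glutamine edgeR called 26 members, 23 higher and 3 lower, where 41.3% of all genes were called, 22.3% higher and 19.0% lower. Leaving out replicate 1 without glutamine gave 1 call among the members, FN1, at an adjusted p in edgeR of 0.0367. That fit called 17 of the 23289 genes it tested. The log2 differences (log2 fold changes) and SEs below are from edgeR with all libraries, without against with glutamine, unless another fit is named.

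**Figure D1:**
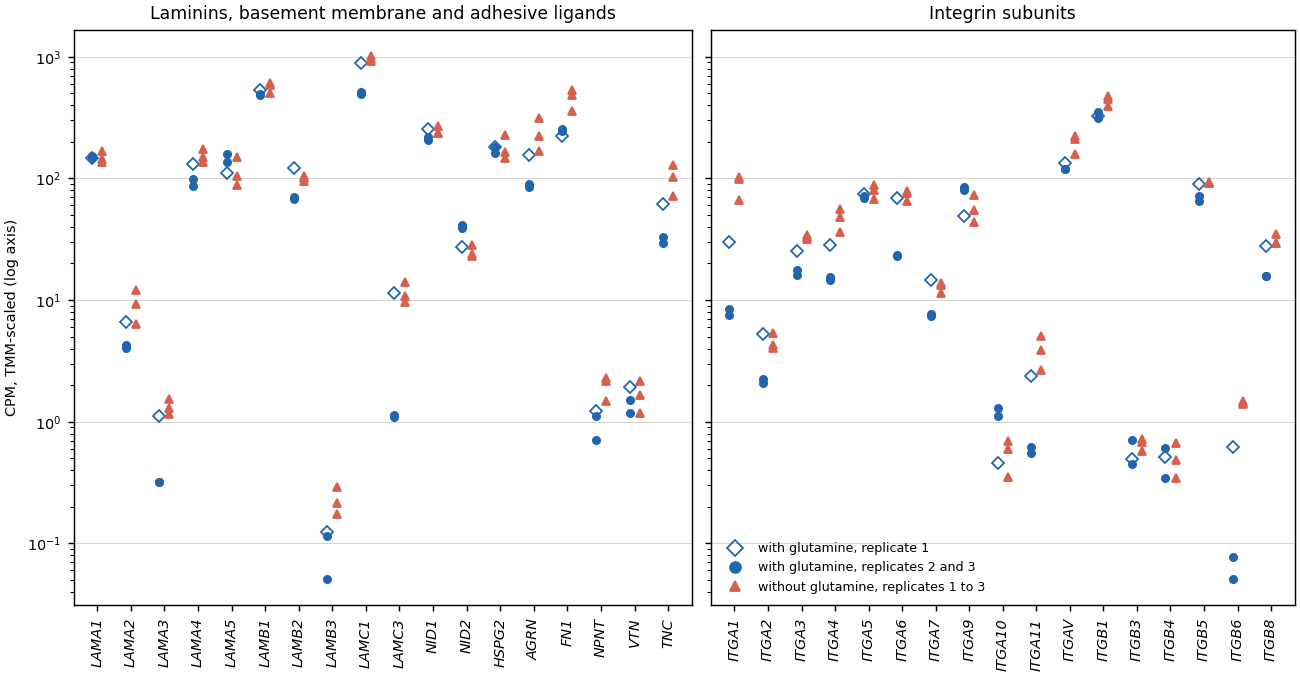
TMM-scaled CPM of each member on a log axis, ligands and matrix proteins on the left and integrin subunits on the right. Open diamonds are replicate 1 with glutamine, filled circles replicates 2 and 3 with glutamine and triangles the 3 libraries without. LAMC1 and LAMB1 are the highest on this scale, which is not corrected for gene length, and in ITGA6 and LAMC3 the open diamond lies among the triangles.

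Among the laminin alpha chains, LAMA4, found in vessel walls and mesenchyme, was the abundant chain whose groups did not overlap. In replicates 1, 2 and 3, LAMA4 had 132, 99.8 and 85.9 CPM with glutamine and 175, 150 and 138 CPM without (in this order here and below). The groups did not touch, but replicate 1 with glutamine came close to the lowest library without. Its log2 difference was 0.54 (SE 0.17, adjusted p 0.0985 in edgeR, DESeq2 adjusted p 0.0218), and 0.74 (adjusted p 0.000549 in edgeR) without that replicate.

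LAMA1, the alpha chain of early embryonic basement membranes, was at 146 to 152 CPM with glutamine and 137 to 167 without, with a log2 difference of 0.01 (SE 0.09). LAMA5, which takes over in mature epithelia and the glomerulus, was at 111 to 159 CPM with and 87.7 to 149 without, with a log2 difference of -0.25 (SE 0.21). Neither was called in any fit, and the groups overlapped in both genes.

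The remaining alpha chains were scarce. LAMA2, the laminin chain of muscle and nerve sheaths, was at 6.58, 4.30 and 4.06 CPM with glutamine and 6.38, 9.34 and 12.2 without. Replicate 1 with glutamine lay just above the lowest library without, and the log2 difference was 0.90 (SE 0.28, adjusted p 0.0996 in edgeR). LAMA3, an epithelial chain of skin and other lining tissues, was at 1.12, 0.320 and 0.318 CPM with and 1.55, 1.15 and 1.29 without, so replicate 1 with glutamine was barely below the lowest of the other group. DESeq2 called LAMA2 (adjusted p 0.00925) and not LAMA3 (adjusted p 0.0635). Without replicate 1 with glutamine the log2 differences were 1.15 for LAMA2 and 2.06 for LAMA3, with adjusted p of 0.00355 and 0.000196 in edgeR.

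Brought to a common length (CPM per kb of exon), the 3 abundant alpha chains could not be ordered with glutamine, though the order depends on the length used. LAMA5 was at 9.45 ± 1.69, LAMA1 at 9.36 ± 0.177 and LAMA4 at 9.16 ± 2.06 CPM per kb (SD, n = 3). Without glutamine LAMA4 led at 13.3 ± 1.64, followed by LAMA1 at 9.43 ± 0.972 and LAMA5 at 7.95 ± 2.23 CPM per kb, of which the last 2 overlapped. LAMA4 made up 39.3%, 29.3% and 27.6% of the summed alpha chain level in replicates 1, 2 and 3 with glutamine and 41.1%, 42.7% and 42.7% without. LAMA5 made up 26.6%, 37.7% and 35.3% with and 28.4%, 24.0% and 22.0% without. The share of LAMA4 was thus higher in each library without glutamine, and replicate 1 with glutamine lay near that group in both shares. With coding length in place of exon length the mean shares of LAMA4, LAMA1 and LAMA5 were 39.9%, 33.5% and 25.4% with glutamine. Without glutamine they were 50.6%, 29.15% and 18.1%, so on that length LAMA4 had the highest mean in both groups.

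LAMC1, the gamma chain of most laminins, had a level per length of 74.9 ± 26.2 CPM per kb with glutamine and 114 ± 5.37 without (SD, n = 3). On the CPM scale it was at 884, 510 and 494 CPM with glutamine and at 1008, 956 and 918 CPM without. The log2 difference was 0.61 (SE 0.22, adjusted p 0.126 in edgeR, DESeq2 adjusted p 0.0337). Leaving out replicate 1 with glutamine, which was close below the libraries without, gave a log2 difference of 0.94 (adjusted p 7.54e-06 in edgeR). LAMC3, a gamma chain of restricted occurrence, was at 11.4, 1.09 and 1.13 CPM with glutamine and at 14.1, 10.7 and 9.58 CPM without. Here replicate 1 with glutamine sat inside the other group, and the fold change depended on it: 1.33 on the log2 scale with it (SE 0.82, adjusted p 0.302 in edgeR) and 3.37 without it (adjusted p 2.29e-06 in edgeR). DESeq2 gave no adjusted p for LAMC3. LAMC1 took 98.5% to 99.8% of the summed level of LAMC1 and LAMC3 per length.

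LAMB1, the usual partner beta chain, was at 489 to 531 CPM with glutamine and 505 to 606 without, a log2 difference of 0.16 (SE 0.09) that no fit called. LAMB2, the beta chain of the mature glomerular basement membrane, was at 123, 70.7 and 68.3 CPM with glutamine and 105, 95.5 and 101 without. In LAMB2 replicate 1 with glutamine was the highest of the 6 libraries, and the log2 difference was 0.21 (SE 0.22) with it and 0.54 (adjusted p 0.000288 in edgeR) without it. LAMB3, the skin beta chain, had 0.123, 0.0512 and 0.115 CPM with and 0.174, 0.294 and 0.217 without, which are 4 to 10 and 15 to 23 counts. Its log2 difference was 1.22 (SE 0.37, adjusted p 0.0982 in edgeR, DESeq2 adjusted p 0.172), and 1.44 (adjusted p 0.0287 in edgeR) without that library. LAMB1 took 78.5% to 85.9% of the summed beta chain level per length with glutamine and 80.2% to 83.7% without.

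The linkers of the network differed less evenly. AGRN, the proteoglycan agrin of neuromuscular and glomerular basement membranes, was at 155, 90.7 and 85.8 CPM with glutamine and at 314, 224 and 170 CPM without. Its groups were apart, with a log2 difference of 1.09 (SE 0.29, adjusted p 0.0819 in edgeR, DESeq2 adjusted p 0.0011), and 1.42 (adjusted p 0.000519 in edgeR) without replicate 1 with glutamine. AGRN shares 402 exon bases with AL645608.5 on its own strand. HSPG2, the proteoglycan perlecan, was at 163 to 182 CPM with and 148 to 226 without, a log2 difference of 0.04 (SE 0.15). NID1, the first nidogen, was at 208 to 253 CPM with and 235 to 270 without, and its log2 difference of 0.12 (SE 0.10) was not called in any fit.

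NID2, the second nidogen, went the other way from most members. It was at 27.2, 41.4 and 39.3 CPM with glutamine and at 28.4, 22.9 and 23.7 without. Replicate 1 with glutamine lay inside the group without, so the groups overlapped. The log2 difference was -0.52 (SE 0.17, adjusted p 0.109 in edgeR), DESeq2 called it lower (adjusted p 0.0438), and without that replicate it was -0.69 (adjusted p 0.000479 in edgeR). NID2 shares 1915 exon bases with RTRAF on the opposite strand, HSPG2 shares 2121 with LDLRAD2, and LAMA1 shares 1641 with AP002409.1. The strand setting of the counting is not given in the sources used here, so reads of these overlaps could have gone to either gene.

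Fibronectin (FN1, ENSG00000115414), the matrix protein that several integrins bind through an arginine-glycine-aspartate sequence (RGD), showed the smallest adjusted p of the members. It was at 224, 244 and 253 CPM with glutamine and at 358, 484 and 537 CPM without. The 3 libraries with glutamine lay close together, replicate 1 included, and those without were spread more widely. The fold change was 1.92 (log2 0.94, SE 0.15, adjusted p 0.068 in edgeR, DESeq2 adjusted p 3.77e-06), and without replicate 1 with glutamine the log2 value was 0.89 (adjusted p 0.000905 in edgeR). FN1 lies on chromosome 2 from 215360440 to 215436172 on the minus strand of GRCh38 (GENCODE 29), the build named in the submitters' processing notes.

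TNC, tenascin-C, a matrix glycoprotein of developing mesenchyme, was at 61.7, 29.7 and 32.8 CPM with glutamine and at 71.1, 103 and 129 without. The groups did not overlap, though the replicates 1 of both groups were close, and the log2 difference was 1.29 (SE 0.32, adjusted p 0.0766 in edgeR). NPNT, nephronectin, a ligand known from the outgrowth of the ureteric bud, was low, at 1.23, 0.704 and 1.12 CPM with and 1.49, 2.27 and 2.15 without, a log2 difference of 0.94 (SE 0.27, adjusted p 0.0858 in edgeR). Both were called by DESeq2, with adjusted p of 0.000307 and 0.0127. Without replicate 1 with glutamine the log2 differences were 1.70 for TNC and 1.11 for NPNT, at adjusted p of 0.000173 and 0.00756 in edgeR. VTN, the serum adhesion protein vitronectin, was at 1.17 to 2.18 CPM in the 6 libraries, with a log2 difference of 0.12 (SE 0.28), and shares 329 exon bases with AC002094.3 on its own strand.

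The upstream sequences of FN1, TNC, ITGAV and ITGB1 are shown because these ligands and receptor subunits were all higher in every library without glutamine. Each is the 250 bases before the RefSeq start on GRCh38.p14, written 5′ to 3′ on the gene's strand, with capitals for letters that match a motif on either strand. The motifs are the cyclic AMP response element (CRE) with the letters TGACGTCA, the CCAAT box with the letters of its name, and the TATA box, searched as TATAA. Further motifs are the AP-1 element, searched as TGANTCA, the E-box, searched in its form CACGTG, and the TEAD element, for which GGAATG was used.
FN1, chr2:215436069-215436318, minus strand: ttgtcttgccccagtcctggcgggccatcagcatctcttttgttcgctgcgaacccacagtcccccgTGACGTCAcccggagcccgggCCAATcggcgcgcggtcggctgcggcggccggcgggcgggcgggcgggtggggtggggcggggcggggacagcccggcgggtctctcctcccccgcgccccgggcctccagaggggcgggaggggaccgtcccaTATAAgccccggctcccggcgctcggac
TNC, chr9:115118158-115118407, minus strand: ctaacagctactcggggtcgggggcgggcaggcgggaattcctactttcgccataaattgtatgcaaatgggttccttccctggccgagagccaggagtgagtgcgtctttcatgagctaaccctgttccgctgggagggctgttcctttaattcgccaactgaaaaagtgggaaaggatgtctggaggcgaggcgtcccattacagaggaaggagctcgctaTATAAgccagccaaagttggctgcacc
ITGAV, chr2:186589806-186590055, plus strand: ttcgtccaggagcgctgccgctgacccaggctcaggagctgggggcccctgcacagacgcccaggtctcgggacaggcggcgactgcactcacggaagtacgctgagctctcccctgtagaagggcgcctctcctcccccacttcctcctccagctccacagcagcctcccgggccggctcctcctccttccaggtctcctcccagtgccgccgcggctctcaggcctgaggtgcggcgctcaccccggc
ITGB1, chr10:32958231-32958480, minus strand: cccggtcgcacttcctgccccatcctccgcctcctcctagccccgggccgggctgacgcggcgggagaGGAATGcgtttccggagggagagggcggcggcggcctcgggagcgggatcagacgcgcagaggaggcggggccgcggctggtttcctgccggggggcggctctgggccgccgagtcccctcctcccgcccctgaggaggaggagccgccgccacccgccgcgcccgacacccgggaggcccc

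No motif was found in all 4 sequences. FN1 holds a CRE match, which 1.65% of the 35116 promoters in the table hold, beside a CCAAT match (32% of promoters) and a TATAA match (18.9%). TNC also holds TATAA, ITGB1 holds GGAATG (11.9%), and ITGAV holds none of the 6. An entry was found for 27 of the 35 members. Of these 27, 1 held CRE, 6 CCAAT, 5 TATAA, 1 TGANTCA (6.57% of all promoters), 1 CACGTG (6.34%) and 5 GGAATG. GC boxes (GGGCGG, on either strand, not capitalised) were found in 17 of 27 members and 42.6% of all promoters. The median GC content was 70% over the 27 and 58% over all. These matches describe letters in a fixed window and say nothing of binding.

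The beta subunit ITGB1, which pairs with most alpha subunits named here, was at 326, 313 and 349 CPM with glutamine and at 394, 454 and 474 without. The 2 groups were apart and replicate 1 with glutamine lay with its own group. The fold change was modest, 1.34 (log2 0.42, SE 0.09, adjusted p 0.0703 in edgeR, DESeq2 adjusted p 0.00783), and the log2 value was again 0.42 (adjusted p 0.00517 in edgeR) without that replicate. ITGB1 gave 77.2% to 82.3% of the summed level of the 6 beta subunits per length with glutamine and 79.5% to 82.3% without, so the share was about the same while the level was higher.

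ITGB5, which pairs with ITGAV as a vitronectin receptor, was at 89.5, 65.3 and 72.3 CPM with glutamine and 93.0, 91.0 and 91.0 without. It was separated by a narrow margin to replicate 1 with glutamine, and the log2 difference was 0.28 (SE 0.12, adjusted p 0.168 in edgeR, DESeq2 adjusted p 0.171). ITGB8, a partner of ITGAV that binds latent TGF-beta, was at 27.8, 15.9 and 15.9 CPM with and 29.4, 29.5 and 34.8 without. Its log2 difference was 0.65 (SE 0.22, adjusted p 0.117 in edgeR, DESeq2 adjusted p 0.0265). In ITGB8 too that replicate came close to the libraries without. Leaving it out gave log2 differences of 0.42 for ITGB5 and 0.98 for ITGB8, at adjusted p of 0.00133 and 4.47e-05 in edgeR.

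ITGB6, an epithelial partner of ITGAV, had a large fold change at a very low level. It was at 0.616, 0.0768 and 0.0509 CPM with glutamine, which are 50, 6 and 4 counts, and at 1.48, 1.39 and 1.44 CPM without. Replicate 1 with glutamine was in between. The log2 difference was 2.51 (SE 0.60, adjusted p 0.0724 in edgeR, DESeq2 adjusted p 0.0713) with it and 4.46 (SE 0.32, adjusted p 6.11e-06 in edgeR) without it. ITGB3, the beta subunit of a vitronectin receptor, was at 0.445 to 0.704 CPM with and 0.570 to 0.727 without, and ITGB4, the hemidesmosome subunit, at 0.346 to 0.611 and 0.345 to 0.674. Neither was called in any fit. ITGB3 shares 2266 exon bases with the gene AC068234.1 on its own strand and ITGB6 shares 966 with AC092153.1, so their counts are uncertain.

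**Figure D2:**
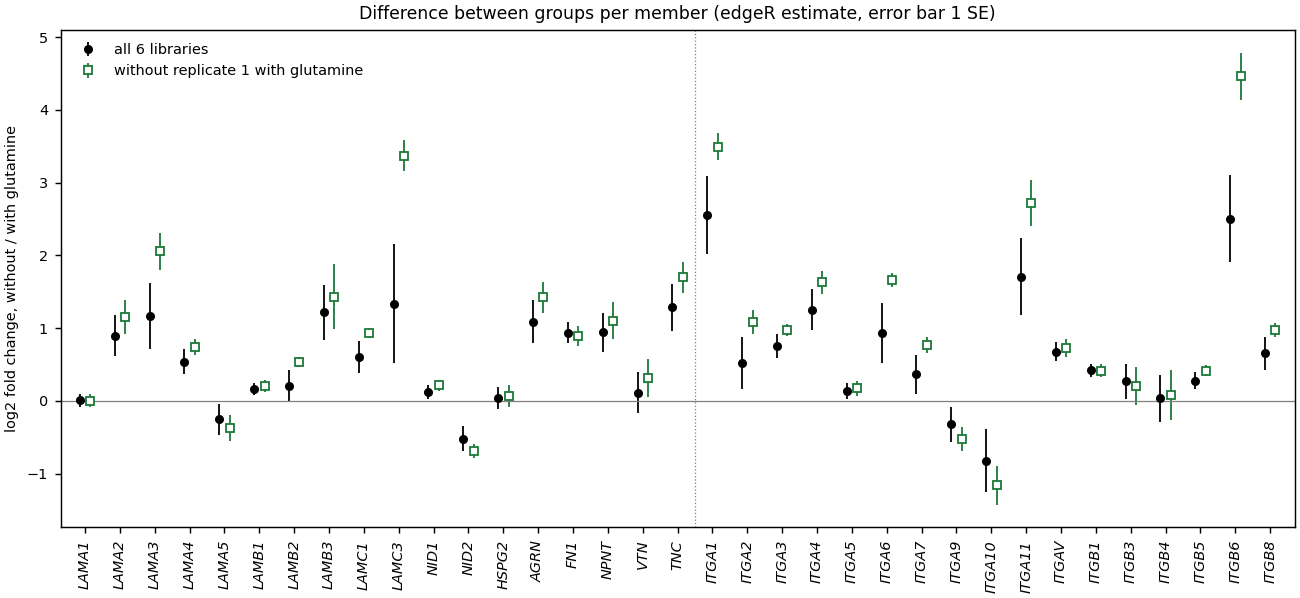
Log2 fold change of each member, without against with glutamine, from edgeR with all 6 libraries (filled circles) and without replicate 1 with glutamine (open squares), with 1 SE. The dotted line separates ligands from integrins. FN1 (0.94 and 0.89), ITGAV (0.68 and 0.73) and ITGB1 (0.42 and 0.42) gave like values in both fits, whereas LAMC3 went from 1.33 to 3.37 and ITGB6 from 2.51 to 4.46.

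Of the collagen-binding alpha subunits, ITGA1 and ITGA11 were separated. ITGA1, a receptor for type IV collagen on mesenchymal and muscle cells, was at 29.9, 7.55 and 8.39 CPM with glutamine and at 67.1, 102 and 99.9 without. The groups were far apart, and replicate 1 with glutamine stood between the other libraries of its group and those without. The fold change was 5.86 (log2 2.55, SE 0.54, adjusted p 0.07 in edgeR, DESeq2 adjusted p 0.00567), and 11.3 (adjusted p 9.47e-07 in edgeR) without that replicate. ITGA1 lies on chromosome 5 from 52787896 to 52959210 on the plus strand in GENCODE 29. On the same strand it shares 475 exon bases with PELO and 571 with the processed pseudogene AC022133.1.

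ITGA11, a collagen receptor of fibroblasts, was at 2.37, 0.551 and 0.624 CPM with glutamine and 2.69, 3.88 and 5.11 without. Its log2 difference was 1.71 (SE 0.53, adjusted p 0.099 in edgeR, DESeq2 adjusted p 0.0812). The groups were narrowly apart, and without replicate 1 with glutamine the log2 difference was 2.72 (adjusted p 0.000134 in edgeR). ITGA2, a collagen and laminin receptor of epithelia and platelets, was at 5.25, 2.25 and 2.07 CPM with and 5.39, 4.29 and 4.05 without, with replicate 1 with glutamine inside the other group. ITGA10, a cartilage collagen receptor, went the other way at 0.456, 1.31 and 1.12 CPM with and 0.349, 0.689 and 0.598 without, a log2 difference of -0.82 (SE 0.43, adjusted p 0.241 in edgeR). Without replicate 1 with glutamine ITGA2 was at 1.09 and ITGA10 at -1.16 on the log2 scale, with adjusted p of 0.000624 and 0.00627 in edgeR.

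Of the laminin-binding alpha subunits, ITGA3 was separated. It was at 25.1, 17.7 and 16.2 CPM with glutamine and at 31.6, 34.5 and 33.3 without, a log2 difference of 0.75 (SE 0.17, adjusted p 0.0706 in edgeR, DESeq2 adjusted p 0.000668), and 0.97 (adjusted p 1.83e-05 in edgeR) without replicate 1 with glutamine. ITGA6, a laminin receptor of epithelia and of many progenitors, was at 68.9, 22.9 and 23.6 CPM with and 79.3, 76.0 and 65.8 without. Replicates 2 and 3 with glutamine were far below the other 4 libraries, and replicate 1 was level with the group without. The log2 difference was 0.94 (SE 0.42, adjusted p 0.181 in edgeR, DESeq2 adjusted p 0.241) with that replicate and 1.67 (SE 0.10, adjusted p 1.34e-06 in edgeR) without. ITGA7, the muscle laminin receptor, was at 14.7, 7.75 and 7.36 CPM with and 13.8, 13.2 and 11.4 without, so replicate 1 with glutamine was the highest of the 6. Its log2 difference was 0.37 (SE 0.27) with that library and 0.76 (adjusted p 0.000442 in edgeR) without it.

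ITGA4, a fibronectin and VCAM1 receptor of migrating cells, was at 28.4, 14.7 and 15.5 CPM with glutamine and at 36.3, 47.9 and 55.9 without. The groups were apart, at a log2 difference of 1.26 (SE 0.28, adjusted p 0.0706 in edgeR, DESeq2 adjusted p 8.25e-05), and 1.63 (adjusted p 4.36e-05 in edgeR) without replicate 1 with glutamine. ITGA9, its relative and a tenascin-C receptor, was at 49.6, 80.1 and 84.5 CPM with and 43.8, 54.7 and 72.9 without. In ITGA9 the groups overlapped because of replicate 1 with glutamine, and the log2 difference was -0.32 (SE 0.25, adjusted p 0.4 in edgeR), or -0.52 (adjusted p 0.0296 in edgeR) without that library.

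ITGAV, the alpha subunit that joins several beta subunits to bind RGD ligands, was at 133, 119 and 120 CPM with glutamine and at 160, 212 and 223 without. Its groups were apart, with a log2 difference of 0.68 (SE 0.13, adjusted p 0.0682 in edgeR, DESeq2 adjusted p 0.000374), and 0.73 (adjusted p 0.0013 in edgeR) without replicate 1 with glutamine. ITGA5, the alpha subunit of the classical fibronectin receptor, was at 68.7 to 74.9 CPM with and 67.9 to 89.0 without. The log2 difference of ITGA5 was 0.14 (SE 0.11), and no fit called it.

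Per length, ITGAV was the leading one of the 11 member alpha subunits in all 6 libraries, with 30.2% to 34.1% of their summed level with glutamine and 32.3% to 35.5% without. This sum leaves out ITGA8 and the alpha subunits of blood cells, such as ITGAE, which are not members. Below ITGAV the order differed between libraries. In replicates 2 and 3 with glutamine ITGA9 (22.7% and 23.4%) and ITGA5 (21.3% and 21.7%) followed, and ITGA6 had 8.24% and 8.29%. In replicate 1 with glutamine ITGA6 had 19.7%, ITGA5 18.4% and ITGA9 11.2%. Without glutamine ITGA6 had 13.2% to 20.1%, ITGA5 14.5% to 15.4%, ITGA9 8.75% to 11.5% and ITGA1 5.98% to 7.54%. The share of ITGA5 was lower in every library without glutamine than in every library with it, and that of ITGA1 higher. With coding length in place of exon length the mean share of ITGA1 was 3.47% with and 13.6% without, against 1.66% and 6.85%.

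**Figure D3:**
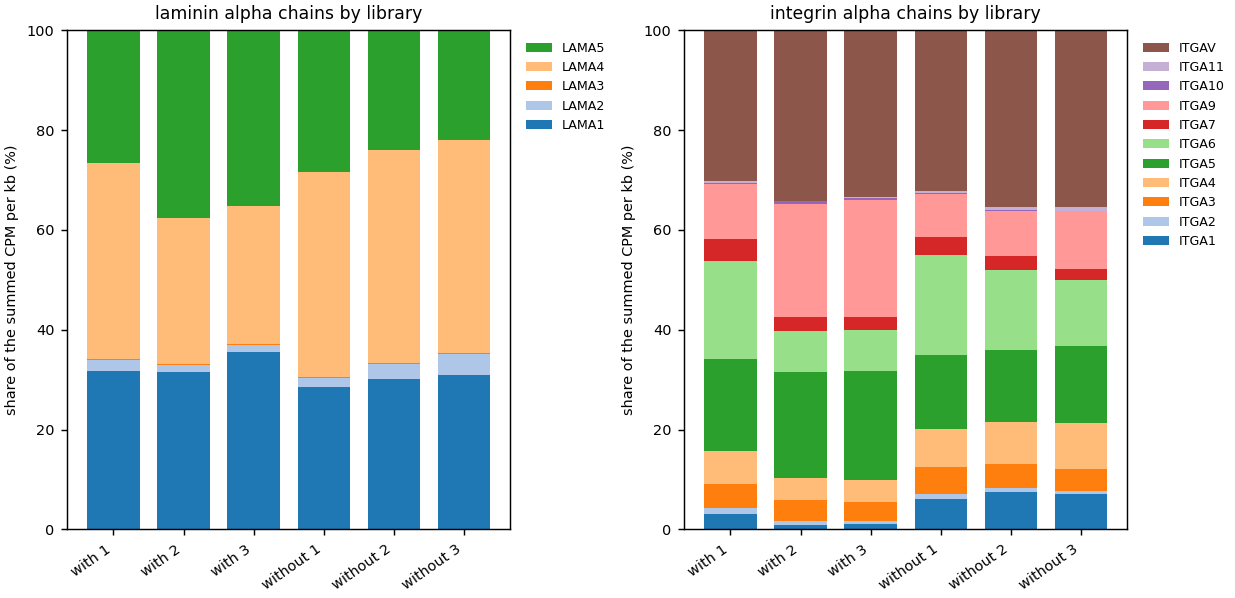
Share of each laminin alpha chain (left) and of each of the 11 integrin alpha subunits (right) in their summed CPM per kb, 1 bar a library. LAMA4 is wider in the bars without glutamine (41.1% to 42.7%), and ITGA9 is wider in replicates 2 and 3 with glutamine (22.7% and 23.4%) than in the other bars.

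Ligands were set beside their known receptors as the ratio of the ligand to the integrin alpha subunit, both in CPM per kb, within each library, which leaves out the scaling of the library. Of 15 ratios, 4 were higher and 3 lower in every library without glutamine, and 8 overlapped. An exact two-sided permutation test with 3 against 3 cannot go below p = 0.1, which these 7 reached, with 0.214 after adjustment over the 15. None of the 15 can therefore pass the threshold. The share of separated ratios among other gene pairs was not computed, so the counts only describe these pairs. NPNT was not among their ligands.

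Fibronectin and its receptors differed unequally. The ratio of FN1 to ITGA5 was 1.31, 1.55 and 1.54 in replicates 1, 2 and 3 with glutamine and 2.31, 2.64 and 2.64 without. FN1 to ITGAV was 0.798, 0.967 and 0.999 with and 1.06, 1.08 and 1.14 without. FN1 to ITGA4 overlapped, at 3.60, 7.54 and 7.45 with and 4.5, 4.61 and 4.38 without. Vitronectin stood lower against ITGAV without glutamine, at 0.0248 to 0.0330, than with it, at 0.0334 to 0.0492, though the nearest libraries differed by little.

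Type IV collagen was represented by its chain COL4A1, at 259 to 377 CPM with glutamine and 583 to 753 without. COL4A2 was also higher in every library without glutamine (log2 difference 0.87), whereas COL4A5 and COL4A6 overlapped (-0.06 and -0.14). The ratio of COL4A1 to ITGA1 was lower without glutamine. COL4A1 to ITGA1 was 15.9, 43.1 and 41.1 with and 11.0, 9.30 and 8.73 without. Against ITGA10 the ratio of COL4A1 was higher without glutamine, at 468 to 717 compared with 84.9 to 354, and against ITGA2 it overlapped. Tenascin-C to ITGA9 was 1.07, 0.318 and 0.333 with and 1.39, 1.61 and 1.53 without.

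For the laminin chains, LAMA1 to ITGA6 was 0.875, 2.65 and 2.65 with glutamine and 0.866, 0.787 and 0.855 without, so the separation rested on a narrow gap between replicate 1 with glutamine and the nearest library without. LAMA5 to ITGA6 (0.734, 3.17 and 2.63 with, 0.609 to 0.860 without) and LAMA5 to ITGA3 (3.02, 6.16 and 5.75 with, 1.81 to 3.24 without) overlapped through the same library. The ratios of LAMA1 and LAMA2 to ITGA7, LAMA3 to ITGA6 and TNC to ITGAV also overlapped.

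**Figure D4:**
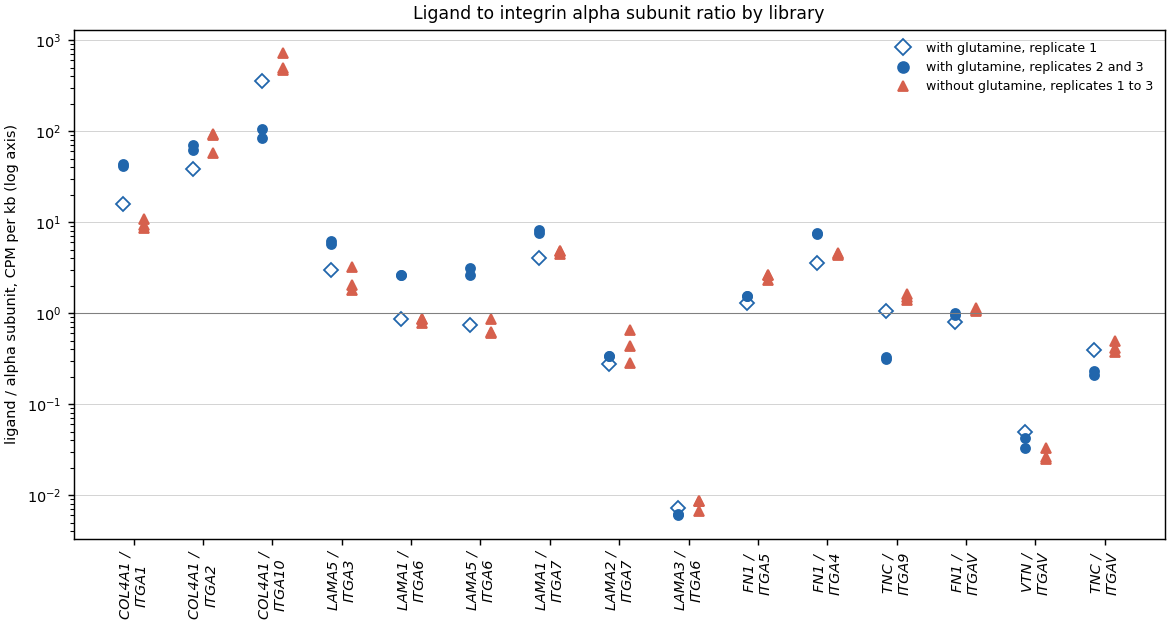
Ratio of each ligand to an integrin alpha subunit that binds it, in CPM per kb on a log axis, by library. Open diamonds are replicate 1 with glutamine, circles replicates 2 and 3 and triangles the libraries without glutamine. FN1 to ITGA5 is separated with the diamond near the circles (1.31 to 1.55 against 2.31 to 2.64), and in LAMA1 to ITGA6 the diamond is beside the triangles.

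For 29 of 35 members (82.9%), against 62.0% of all genes, replicate 1 with glutamine was closer to the group without than to its own, and its place differed among members. On a scale from 0 at the mean of replicates 2 and 3 with glutamine to 1 at the mean of the libraries without, computed on log2(CPM + 0.1), it lay at -0.17 for FN1, -0.05 for ITGB1, 0.21 for ITGAV, 0.36 for LAMB3 and 0.41 for NPNT. It lay between 0.55 and 0.59 for ITGA1, ITGA4, AGRN, TNC, ITGA3 and LAMA2. ITGA6 at 0.94, LAMC3 at 1, ITGA2 at 1.2, ITGA7 at 1.27 and LAMB2 at 1.54 were with or past the libraries without glutamine. Over the 26 members called without that replicate the median was 0.72, with quartiles of 0.57 and 0.94. Over the 9357 genes called in the same way it was 0.75, with quartiles of 0.48 and 0.98. The replicate lay past 0.5 in 21 of the 26 (80.8%) and in 73.3% of the 9357. The difference between the sets was not tested.

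Other genes of the basement membrane were followed as a list of 26. With all libraries 11 were separated higher and 1 lower, edgeR called 0, 13 had an unadjusted p under 0.05, and DESeq2 called 6 higher and 3 lower. Without replicate 1 with glutamine edgeR called 15 higher and 3 lower. The median log2 difference of the list was 0.40. Over all genes tested, 17.3% were separated higher and 16.9% lower, and 29.7% had an unadjusted p under 0.05. DESeq2 called 7.54% higher and 6.44% lower, and edgeR without that replicate 22.3% and 19.0%. Counts of the lists that follow stand against the same shares. FBLN5, a fibulin of elastic fibres, was at 0.356 to 5.95 CPM with glutamine and 7.39 to 11.8 without, and FREM1, a protein of the Fraser complex under embryonic epithelia, at 35 to 118 and 146 to 159. NTN1, a netrin guidance protein related to laminins, was at 25.2 to 119 CPM with and 13.5 to 15.9 without, and was the 1 gene of the list separated lower.

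The list of 10 other integrin ligands had 3 separated higher and 1 lower, with 8 at an unadjusted p under 0.05, 0 called by edgeR and 4 higher and 1 lower called by DESeq2. CCN1, a matricellular integrin ligand, was at 27.3 to 33.6 CPM with glutamine and 41.1 to 79.3 without, and TGFBI, a matrix protein induced by TGF-beta, at 84.9 to 113 and 123 to 233. MFGE8, an RGD ligand of ITGAV integrins, was at 205 to 229 and 167 to 188 CPM. Of 11 matrix receptors other than integrins, 5 were separated higher and 0 lower, with 0 called by edgeR, 5 at an unadjusted p under 0.05 and 2 higher called by DESeq2. BCAM, a receptor for the laminin chain LAMA5, was at 20.3 to 101 CPM with and 107 to 182 without, and SDC2, the proteoglycan syndecan 2, at 107 to 136 and 165 to 204. Of 8 integrin subunits of blood cells, 4 failed the filter on low counts. ITGAE, a subunit of intraepithelial lymphocytes, was separated higher (14.4 to 18.3 CPM with glutamine, 18.4 to 21.4 without), and ITGA2B, the platelet fibrinogen receptor subunit, lower (5.34 to 6.76 and 3.65 to 4.87 CPM).

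Markers of other cell types differed beside these genes. Their counts stand against 17.3% of all genes separated higher and 16.9% lower. Of 6 epithelial markers 5 were separated higher, and their summed level was 119 to 183 CPM with glutamine and 271 to 309 without, with CDH1 at 20.9, 0.640 and 0.573 CPM with and 23.9 to 28.7 without. The 7 smooth muscle and stromal markers summed to 472 to 551 CPM with and 523 to 824 without, with 2 of 7 separated higher and 1 lower. The 7 endothelial markers summed to 50.2 to 96.3 and 45.2 to 82.2 CPM, with 1 higher and 4 lower, and the 7 somite and paraxial mesoderm markers to 119 to 240 and 122 to 143 CPM, with 0 higher and 1 lower. The 10 nephron progenitor markers summed to 968 to 1651 and 1524 to 2053 CPM, with 2 higher and 1 lower, and in 10 of 10 that first replicate with glutamine was closer to the group without. The 6 blood markers summed to at most 7.62 CPM, with HBG1 at 0 in every library. The 6 neural markers summed to 457 to 496 and 454 to 589 CPM with 1 higher and 1 lower, and the 5 pluripotency markers to 340 to 436 and 337 to 407 CPM, with DPPA4 higher and LIN28A lower. The part of these markers in the differences of the laminins and integrins was not tested.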

How the data were processed

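Per the labels, stranded mRNA libraries were read as single 50-base ends. The submitters' processing notes name cutadapt, Trim Galore, FastQC, STAR 2.5.2b, DESeq2 and GRCh38. The authors deposited raw counts per Ensembl gene, which were used as deposited, and size-factor normalized counts, which were not used. The counting program, annotation and strand setting are not given in the sources used here. The column headings name days 0 and 9. Columns were assigned through the sample descriptions, by which day 0 headings are the libraries with glutamine, and every direction rests on that.

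Genes were tested with edgeR 4.0.16 (R 4.3.3; filterByExpr by group, TMM, quasi-likelihood F test, legacy = FALSE, robust = FALSE), with Benjamini-Hochberg adjustment over all 22613 genes kept and a threshold of 0.05. The SE of a log2 fold change is its size divided by the square root of F. Symbols, positions and lengths came from GENCODE 29. DESeq2 1.42.0, limma 3.58.1 (voom), other scalings and filters, and leaving out each library were alternatives. The fits were tested on simulated counts. Members, lists, rules and the setting of legacy were chosen with earlier results of these data known. All members are named. A member's libraries are listed where the groups did not overlap at 1 CPM or more, or where it was called by DESeq2 or without replicate 1 with glutamine. From other lists at most the 2 highest and 2 lowest separated genes at 1 CPM or more are named, and COL4A1 as a ligand with other type IV collagen chains. Same-numbered libraries did not deviate together (correlations of -0.021, 0 and 0.028). Intervals for counting error are not given. They are narrow for abundant members and wide for those with few counts, such as LAMB3 with 4 to 23. Promoter sequences are from RefSeq, GRCh38.p14.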

Additional observations from a re-analysis of the deposited data

How the results depend on the processing

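Over all genes edgeR called 1. It called 0 with upper quartile scaling, 0 with legacy = TRUE and 2 with no filter, limma-voom called 0, and DESeq2 called 3041. With the replicate block 0 genes and 0 members were called. No pairing by number was seen. Leaving out 1 library gave 0 to 9573 genes and 0 to 26 members called, and 17 to 28 members without overlap. The highest of each came without replicate 1 with glutamine. With fewer libraries groups separate more easily, and the share of all genes without overlap is not given for these fits. The 28 members can therefore not be set against the 17 with all libraries or the 34.2% of all genes. DESeq2 called 14 members. The cause of these differences was not tested. Of 524 member values under the alternatives, 472 stayed as they were in sign and call, 41 gained a call and 11 reversed. The 41 were 26 without replicate 1 with glutamine, 14 under DESeq2 and FN1 without replicate 1 without glutamine.

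Upper quartile scaling left 13 members separated, all higher, since LAMA3, LAMA4, LAMC1 and ITGB5 no longer were, and moved the median over all genes by less than 0.1. Under it LAMA1 was at -0.034, HSPG2 at -0.006 and ITGB4 at -0.006 on the log2 scale. The other reversals came from leaving out 1 library, where LAMA1 ran from -0.072 to 0.067, HSPG2 from -0.154 to 0.164, VTN from -0.122 to 0.325 and ITGB4 from -0.243 to 0.246. Members under 1 CPM rest on few counts, and how small a difference could be detected in them was not tested.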
